A study of Mus musculus with 4 samples.

Results

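The lysosomal genes described here are those whose symbols begin with Atp6v, the subunits of the vacuolar proton pump (V-ATPase), the single-letter cathepsins from *Ctsa* to *Ctsz*, and the numbered LAMP genes. Members were taken by a pattern on the symbol, which sets no threshold on a measured value. The pattern found 38 of the 28585 genes listed. *Ctsg*, a protease of neutrophil granules, and the pseudogene *Atp6v0c-ps2* were left out, which left 36 members, 20 with an Atp6v symbol, 13 cathepsins and 3 LAMP genes. One of the 20, *Atp6v1fnb*, is named for its position beside *Atp6v1f* and is not a pump subunit. Of the 36 members, 32 had a mean of at least 0.1 FPKM (fragments counted on a transcript, scaled to its length and to the size of the library) and were tested. The other 4 were *Lamp5*, listed at 0 in every library, and *Atp6v0a4*, *Atp6v0e2* and *Atp6v1fnb*, none above 0.14 FPKM in any library.

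The values come from bulk RNA sequencing of PMN-MDSCs, the polymorphonuclear kind of myeloid-derived suppressor cell, a neutrophil-lineage cell that restrains T cells, sorted as CD11b+ Ly6C lo/- Ly6G+ cells from the spleens of C57BL/6J pups on postnatal day 7. The study's authors state that this gate may also take in polymorphonuclear cells that are not PMN-MDSCs. There were 2 libraries labelled Dhps cko and 2 labelled Dhps flox. All pups carried floxed *Dhps*, which encodes deoxyhypusine synthase, the enzyme that starts hypusination of the translation factor eIF5A. The Dhps cko pups (Dhps fl/fl Lysm cre) also carried Cre in the *Lysm* (*Lyz2*) locus, which deletes the gene in myeloid cells in general and not in PMN-MDSCs alone, whereas the Dhps flox pups (Dhps fl/fl) had no Cre, so deletion of *Dhps* and presence of the Cre allele cannot be told apart. The labels do not say how many pups stood behind a library or whether replicates came from separate litters, so the p-values measure the spread between these libraries only.

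Lysosomes are acidified by the V-ATPase, a rotary pump in which the cytosolic V1 sector (subunits A to H) hydrolyses ATP and the membrane V0 sector (subunits a, c, c", d and e) carries protons into the lumen. Cathepsins are the proteases that work in this acid lumen, most of them cysteine proteases, with aspartic and serine enzymes among them. The LAMP proteins are heavily glycosylated and line the inner face of the lysosomal membrane. In neutrophils the pump also acidifies granules and phagosomes, and cathepsin C activates the serine proteases of the azurophilic granules.

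The labels were checked first. In replicates 1 and 2, in the order kept below, *Dhps* was listed at 2.38 and 2.59 FPKM for Dhps cko and at 3.57 and 3.11 FPKM for Dhps flox (log2 fold change -0.41, SE 0.13; adjusted p = 0.63, limma), so the label was borne out in direction only, and *Lyz2*, whose locus carries Cre, was at 34.5% of its Dhps flox mean in Dhps cko. The libraries held 10611 to 10729 genes at 1 FPKM or more, and low FPKM values pointed to roughly 29300000 to 31700000 mapped fragments per library. Neutrophil markers were abundant in every library, with *S100a9* at no less than 24503.8 FPKM and *Ly6g* at no less than 184.80 FPKM. The 4 Y-linked genes listed summed to 7.07 and 8.07 FPKM in Dhps cko and to 17.64 and 15.62 FPKM in Dhps flox, without overlap, and *Xist* was at 27.54 and 20.27 FPKM in Dhps cko and at 16.25 and 17.17 FPKM in Dhps flox. The part of sex in the results below was not tested.

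Most pump genes and both LAMP genes tested lay close to 0 in log2 fold change, and the clearest differences lay among the cathepsins, where *Ctse* was lower and *Ctss* and *Ctsc* higher in Dhps cko. None of the 32 members tested had an adjusted p under 0.05 (limma with Benjamini-Hochberg adjustment over 17948 genes, of which 0.00557% were called; the lowest adjusted p of a member was 0.36). With an unadjusted p under 0.05 there were 6 members, or 18.75% of those tested, against 7.0% of all genes tested: *Ctse*, *Ctss*, *Ctsc*, *Ctsd*, *Atp6v1f* and *Atp6v0b*. By family these were 4 of the 13 cathepsins (30.8%), 2 of the 17 pump genes (11.8%) and 0 of the 2 LAMP genes. Among 15 alternative settings, the number over all members was 3 without a mean-variance trend, where 1296 of all 17948 genes tested were under that p. With TPM scaling it was 4, where 1305 of 21796 genes were. *Ctse*, *Ctss* and *Ctsc* were called both times, *Atp6v1f* only with TPM scaling, and *Atp6v0b* and *Ctsd* neither time. No such count is given here for settings that leave 1 library in a genotype. The genotypes did not overlap for 18 of the 32 members, where 36.0% of all genes tested did not overlap. Among the 27 members of at least 1 FPKM, 6 had an unadjusted p under 0.05 (7.45% of all genes at that level) and 16 did not overlap (38.6% of all genes at that level). With 2 libraries a genotype the smallest p of an exact permutation test is 0.33, so none was run.

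**Figure D1:**
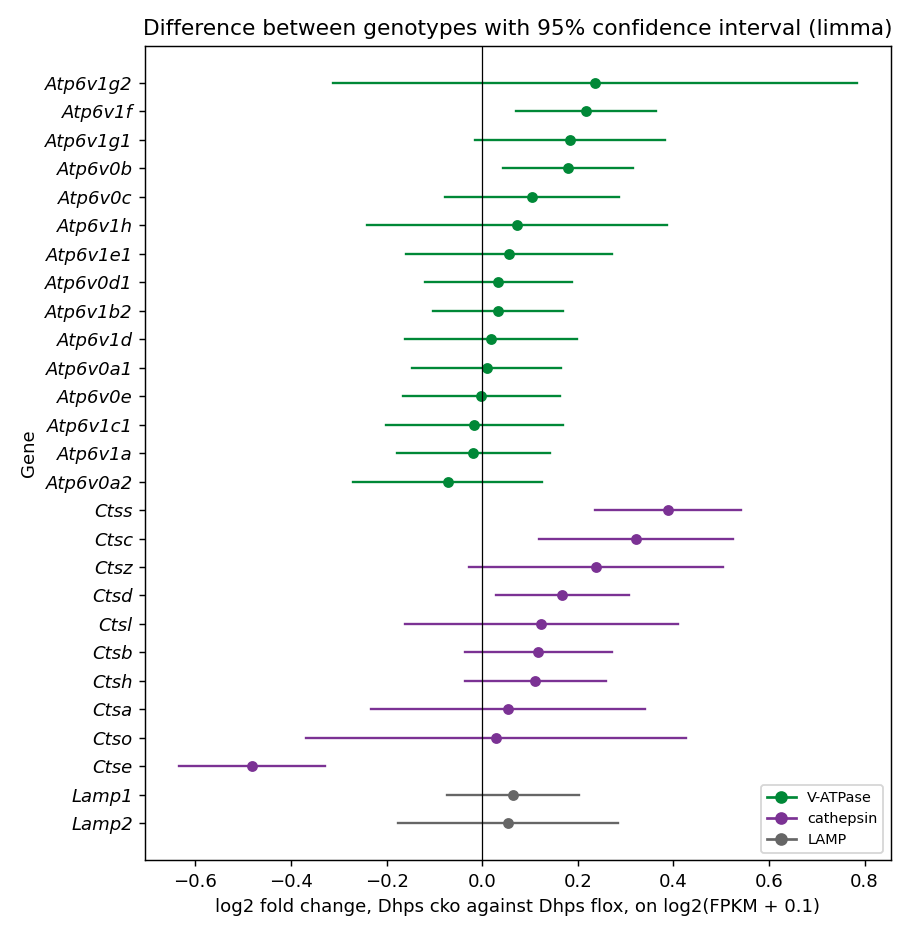
Log2 fold change between genotypes (x axis, log2 scale of FPKM + 0.1) for the 27 members of at least 1 FPKM (y axis), with points for the limma estimate, bars for the 95% confidence interval and colours for V-ATPase, cathepsin and LAMP genes. *Ctse* lies at -0.48 and *Ctss* at 0.39, while most pump genes lie near 0.

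Among the V1 genes, those of the catalytic core showed nearly equal levels in both genotypes. *Atp6v1a*, which encodes the ATP-hydrolysing A subunit, was at 21.88 and 22.53 FPKM in Dhps cko and at 22.99 and 21.99 FPKM in Dhps flox, so the genotypes overlapped. *Atp6v1b2*, the B subunit gene of most cells, was at 47.05 and 48.38 FPKM in Dhps cko and at 46.28 and 46.97 FPKM in Dhps flox, a log2 fold change of 0.03 (95% confidence interval -0.10 to 0.17). The groups did not overlap for *Atp6v1b2*, but the gap was small beside the level. Of the subunits of the central and peripheral stalks, *Atp6v1d* had a log2 fold change of 0.02 (-0.16 to 0.20) and *Atp6v1e1* of 0.06 (-0.16 to 0.27). *Atp6v1h*, a regulatory subunit gene, had the lowest level of the V1 genes other than the minor isoforms, between 3.58 and 4.22 FPKM in the 4 libraries.

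The small V1 subunit F stood apart from the core. *Atp6v1f* (ENSMUSG00000004285, chr6:29467718-29470512, GRCm38) was at 26.73 and 26.27 FPKM in Dhps cko and at 22.71 and 22.85 FPKM in Dhps flox. Both Dhps cko libraries were higher than both Dhps flox libraries, with a log2 fold change of 0.22 (SE 0.06; unadjusted p = 0.012 and adjusted p = 0.56, limma). *Atp6v1g1*, a short peripheral stalk subunit gene, was at 64.02 and 64.98 FPKM in Dhps cko and at 60.52 and 53.24 FPKM in Dhps flox. These groups did not overlap either, but Dhps flox replicate 1 lay nearer to the Dhps cko libraries than to Dhps flox replicate 2, and the log2 fold change of 0.18 (SE 0.08) had an unadjusted p of 0.064 (limma). It was 0.28 without Dhps flox replicate 1, with an unadjusted p of 0.013 (limma), and 0.09 without Dhps flox replicate 2.

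The V0 sector held the most abundant pump gene. This was *Atp6v0c*, the c subunit of the membrane ring, at 88.58 and 85.39 FPKM in Dhps cko and at 76.82 and 85.30 FPKM in Dhps flox. Dhps flox replicate 2 lay just under Dhps cko replicate 2, and the log2 fold change was 0.10 (95% confidence interval -0.08 to 0.29), or 0.03 without Dhps flox replicate 1 and 0.18 without Dhps flox replicate 2. Its level is uncertain, because the pseudogene *Atp6v0c-ps2* was listed at 30.82 to 33.4 FPKM and near-identical copies can split reads. *Atp6v0b*, the c" ring subunit, was at 51.88 and 50.45 FPKM in Dhps cko and at 44.85 and 45.49 FPKM in Dhps flox. The groups did not overlap, and the log2 fold change was 0.18 (SE 0.05; unadjusted p = 0.020 and adjusted p = 0.61, limma). Of the exon bases of *Atp6v0b*, 11.8% lie opposite the antisense gene *Gm12841*. *Atp6v0d1*, which joins the ring to the stalk, was at 58.68 and 63.01 FPKM in Dhps cko and at 59.43 and 59.35 FPKM in Dhps flox, and *Atp6v0e* was between 15.98 and 16.66 FPKM in all libraries.

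**Figure D2:**
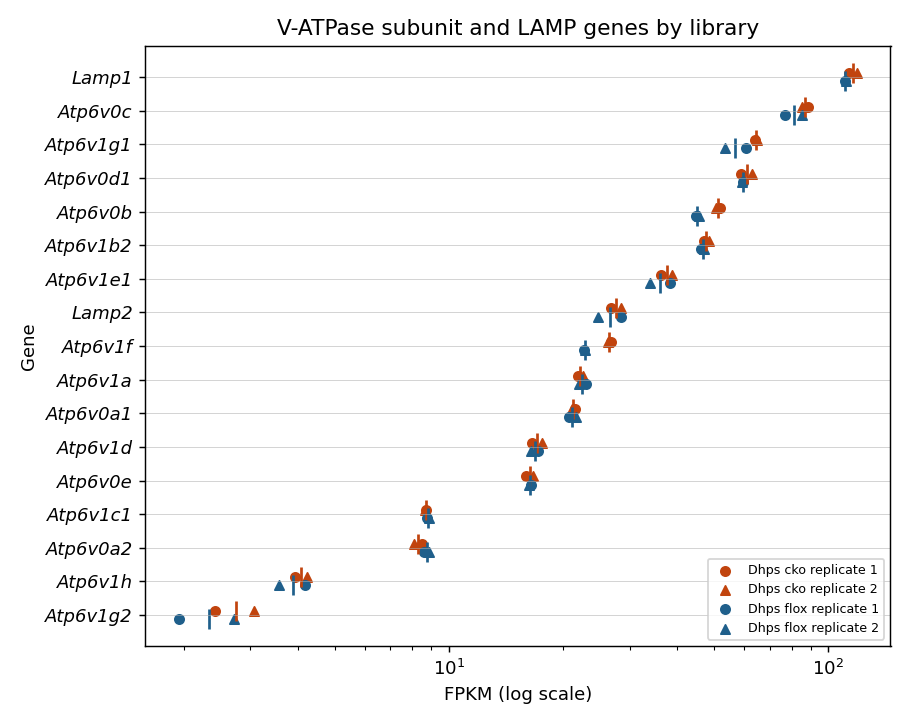
FPKM (x axis, log scale) of the V-ATPase and LAMP genes whose mean reached 1 FPKM (y axis) in each of the 4 libraries, with circles for replicate 1, triangles for replicate 2 and vertical ticks for genotype means. Levels run from about 2 FPKM for *Atp6v1g2* to over 110 FPKM for *Lamp1*, and the genotypes lie close together for nearly every gene.

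Levels of the subunits differed widely from each other. On the FPKM scale, which is per length of transcript, the mean over the 4 libraries was, among genes with an Atp6v symbol, highest for *Atp6v0c* at 84.0 FPKM, followed by *Atp6v1g1* at 60.7 and *Atp6v0d1* at 60.1 FPKM, whose libraries overlapped. *Atp6v0b* at 48.2 and *Atp6v1b2* at 47.2 FPKM came next and overlapped too. Summed over the 20 genes with an Atp6v symbol, *Atp6v1fnb* included and *Tcirg1* not, the FPKM stood at 472.87 and 479.61 in Dhps cko and at 450.24 and 447.53 FPKM in Dhps flox, 106.1% of the Dhps flox mean, where all genes tested summed to 102.2%. The median log2 fold change of the 17 pump genes tested was 0.03, with 12 above 0, beside a median of 0.01 over all genes tested. For 10 of the 15 pump genes of at least 1 FPKM, the 95% confidence interval lay within 0.3 of 0 on the log2 scale, so differences larger than that were outside the interval for these genes.

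Several pump subunits have more than 1 gene, and in these cells a single isoform held nearly all of the FPKM of the C, G, d and e subunits. Several genes shared the a subunit, the membrane arm that decides where the pump is sent. Here *Tcirg1*, the a3 gene known from osteoclasts and phagocytes, was at 53.29 and 43.15 FPKM in Dhps cko and at 41.26 and 51.64 FPKM in Dhps flox. *Atp6v0a1* was at 21.51 and 21.08 FPKM in Dhps cko and at 20.75 and 21.57 FPKM in Dhps flox. *Atp6v0a2* was at 8.51 and 8.10 FPKM in Dhps cko and at 8.60 and 8.87 FPKM in Dhps flox, so only *Atp6v0a2* did not overlap, with a log2 fold change of -0.07 (SE 0.08). As a share of the summed FPKM of the a subunit genes, *Tcirg1* held 61.8% ± 3.1 (SD, n = 2) in Dhps cko and 60.6% ± 3.2 (SD, n = 2) in Dhps flox, *Atp6v0a1* held 27.5% ± 2.3 and 27.8% ± 2.2, and *Atp6v0a2* held 10.7% ± 0.69 and 11.5% ± 0.97. These shares overlapped between genotypes for all 3 genes.

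For the G subunit, *Atp6v1g2*, known mainly from neurons, was detected at 2.42 and 3.07 FPKM in Dhps cko and at 1.95 and 2.71 FPKM in Dhps flox, against more than 50 FPKM for *Atp6v1g1*. *Atp6v1g1* held between 95.2% and 96.9% of the G subunit FPKM in each library. The C subunit came almost wholly from *Atp6v1c1*, at 8.71 and 8.67 FPKM in Dhps cko and at 8.74 and 8.84 FPKM in Dhps flox, whereas *Atp6v1c2* was at 0.11 and 0 FPKM in Dhps cko and at 0.19 and 0.15 FPKM in Dhps flox. *Atp6v0d2*, the d isoform of osteoclasts and some macrophages, was at 0.15 and 0.21 FPKM in Dhps cko and at 0.10 and 0.03 FPKM in Dhps flox. These low values stand for roughly 0 to 18 fragments a library, and both genes passed the filter with means of 0.11 and 0.12 FPKM, so their log2 fold changes of -0.89 (SE 0.54) and 0.79 (SE 0.46) rest on few fragments.

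Among members of at least 1 FPKM, the fold changes farthest from 0 were those of cathepsins, and the aspartic pair differed in opposite directions. Cathepsin D, the main aspartic protease of lysosomes, was the most abundant member. *Ctsd* (chr7:142375911-142388038, GRCm38) was at 191.28 and 196.09 FPKM in Dhps cko and at 168.96 and 175.98 FPKM in Dhps flox. Both Dhps cko libraries were higher, with a log2 fold change of 0.17 (SE 0.05; unadjusted p = 0.027 and adjusted p = 0.63, limma). With quantile normalization it was 0.06, with an unadjusted p of 0.29 (limma). Of its exon bases, 34.4% are shared with the gene model *Gm49369* on the same strand, which was listed at 0.23 FPKM in Dhps cko replicate 1 and at 0 in the others.

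Cathepsin E, an aspartic protease of endosomes in immune and epithelial cells, went the other way. *Ctse* (ENSMUSG00000004552, chr1:131638306-131675505) was at 42.48 and 39.96 FPKM in Dhps cko and at 56.90 and 58.22 FPKM in Dhps flox. The groups were far apart beside the gap between replicates, and the Dhps cko mean was 71.6% of the Dhps flox mean. The log2 fold change was -0.48 (SE 0.06, 95% confidence interval -0.63 to -0.33; unadjusted p = 0.000466 and adjusted p = 0.36, limma). It ran from -0.53 to -0.44 over the 15 alternatives, with adjusted p between 0.12 and 0.96. Within a library, *Ctse* made up 18.2% and 16.9% of the summed *Ctsd* and *Ctse* FPKM in Dhps cko and 25.2% and 24.9% in Dhps flox, a share that multiplying a whole library by a constant leaves as it is. *Ctse* is also expressed by red blood cell precursors, and the 9 erythroid markers listed summed to 735.52 and 881.87 FPKM in Dhps cko and to 608.86 and 917.4 FPKM in Dhps flox. The erythroid sums overlapped between genotypes, and their part in the level of *Ctse* was not tested.

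**Figure D3:**
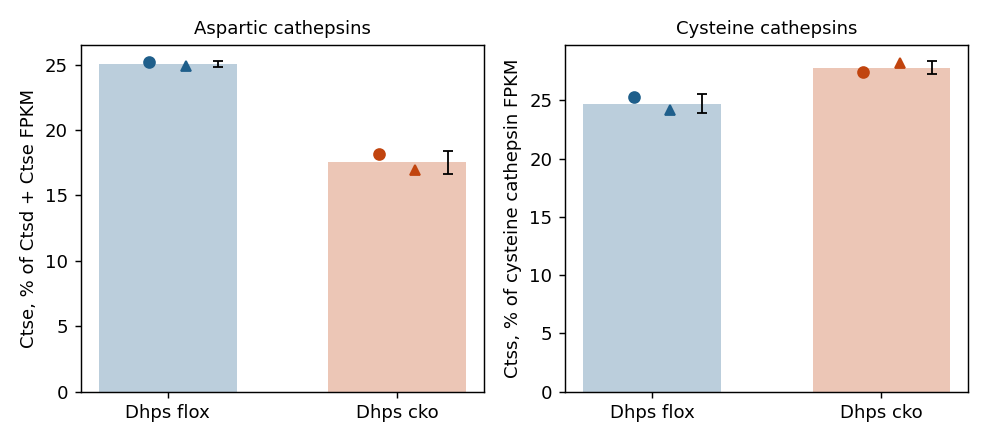
Share of *Ctse* in the summed FPKM of *Ctsd* and *Ctse* (left y axis, %) and of *Ctss* in the summed FPKM of the 10 cysteine cathepsins (right y axis, %), by genotype on the x axis, with a circle for replicate 1, a triangle for replicate 2, bars for means and error bars for SD (n = 2). *Ctse* lies at 17.6% in Dhps cko and 25.0% in Dhps flox, and *Ctss* at 27.8% and 24.7%.

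Of the 10 cysteine cathepsins, 9 had a log2 fold change above 0 and 6 were higher in both Dhps cko libraries than in both Dhps flox libraries, which 20.0% of all genes tested were. *Ctss*, a protease of antigen-presenting cells and phagocytes that trims the invariant chain of MHC class II, lies at chr3:95526786-95556403. It was at 52.14 and 54.44 FPKM in Dhps cko and at 41.69 and 39.67 FPKM in Dhps flox. Again the groups were far apart beside the replicates, with a log2 fold change of 0.39 (SE 0.06, 95% confidence interval 0.24 to 0.54; unadjusted p = 0.00128 and adjusted p = 0.41, limma). Over the alternatives it ran from 0.31 to 0.42, with adjusted p between 0.20 and 0.96. *Ctsk*, the collagen-cleaving cathepsin of osteoclasts, lies just before *Ctss* on the same chromosome, yet it was at 0.76 and 0.34 FPKM in Dhps cko and at 0.40 and 0.30 FPKM in Dhps flox, with overlap.

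*Ctsc* encodes dipeptidyl peptidase I, which activates neutrophil elastase and its relatives. It was at 10.64 and 10.45 FPKM in Dhps cko and at 8.75 and 8.09 FPKM in Dhps flox. Both Dhps cko libraries were higher, with a log2 fold change of 0.32 (SE 0.08; unadjusted p = 0.00956 and adjusted p = 0.54, limma). Of the genes of its substrates, *Elane* was at 23.82 and 13.86 FPKM in Dhps cko and at 9.76 and 15.37 FPKM in Dhps flox, and *Ctsg* overlapped as well, while *Prtn3* was at 13.24 and 7.72 FPKM in Dhps cko and at 6.54 and 7.19 FPKM in Dhps flox. None of the 3 had an unadjusted p under 0.05 (limma). The list of 6 early neutrophil genes that holds them summed to 365.02 and 308.16 FPKM in Dhps cko and to 268.39 and 291.24 FPKM in Dhps flox, but most of each sum was *Cebpe*, a transcription factor gene at 298.1 and 266.12 FPKM and at 234.71 and 246.82 FPKM, which was also the 1 gene of the list with an unadjusted p under 0.05. The part of neutrophil stage in the level of *Ctsc* was not tested.

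*Ctsb*, the most abundant cysteine cathepsin, was at 59.00 and 63.27 FPKM in Dhps cko and at 56.52 and 56.09 FPKM in Dhps flox, a log2 fold change of 0.12 (95% confidence interval -0.04 to 0.27), or 0.17 without Dhps cko replicate 1 and 0.07 without Dhps cko replicate 2. *Ctsz*, a carboxypeptidase, was at 33.82 and 30.31 FPKM in Dhps cko and at 25.07 and 29.37 FPKM in Dhps flox, a log2 fold change of 0.24 (SE 0.10) with an unadjusted p of 0.070 (limma). It was 0.12 without Dhps flox replicate 1 and 0.35 without Dhps flox replicate 2. Neither *Ctsb* nor *Ctsz* overlapped between genotypes, but both intervals included 0. *Ctsh* had a log2 fold change of 0.11 (-0.04 to 0.26), *Ctsl* of 0.12 (-0.16 to 0.41) and *Ctso* of 0.03 (-0.37 to 0.43). *Ctsl* is uncertain, since 26.8% of its exon bases lie opposite an antisense gene and 6.09% lie in a pseudogene. Smaller stretches lie opposite coding genes, 12.8% of the exon bases of *Ctsb*, 10.5% (*Pltp*) and 6.87% (*Neurl2*) of those of *Ctsa* and 9.31% of those of *Lamp1*, and whether strand was used in counting is not given in the sources used here. The serine carboxypeptidase gene *Ctsa*, whose product shields beta-galactosidase and neuraminidase, was at 18.03 FPKM in both Dhps cko libraries and at 15.66 and 19.26 FPKM in Dhps flox. *Ctsf* and *Ctsw*, the latter known from cytotoxic lymphocytes, were at 0.11 to 0.65 FPKM and overlapped.

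**Figure D4:**
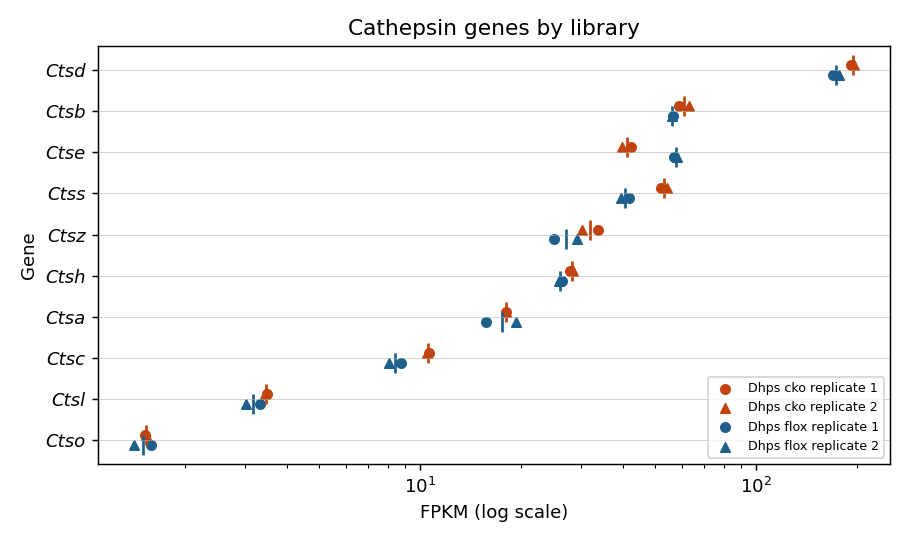
FPKM (x axis, log scale) of the 10 cathepsin genes whose mean reached 1 FPKM (y axis) in each of the 4 libraries, with circles for replicate 1, triangles for replicate 2 and vertical ticks for genotype means. *Ctse* is the gene whose Dhps cko points lie clearly to the left of the Dhps flox points, and *Ctss* and *Ctsc* lie to the right.

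Summed, the 13 cathepsins stood at 441.86 and 447.08 FPKM in Dhps cko and at 406.14 and 417.83 FPKM in Dhps flox, 107.9% of the Dhps flox mean. The 10 cysteine cathepsins alone stood at 116.4%, while *Ctsd* and *Ctse* together stood at 102.1%, their opposite differences nearly cancelling. Within the cysteine cathepsins, *Ctss* made up 27.8% ± 0.55 (SD, n = 2) of the FPKM in Dhps cko and 24.7% ± 0.84 (SD, n = 2) in Dhps flox. *Ctsb* made up 31.9% ± 1.2 and 34.2% ± 0.15, so the order of the pair was the same in both genotypes but their levels were closer in Dhps cko. The median log2 fold change of the 13 cathepsins was 0.12, with 11 above 0.

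*Lamp1*, the major glycoprotein of the lysosomal membrane, was at 113.23 and 118.66 FPKM in Dhps cko and at 110.40 and 111.35 FPKM in Dhps flox, a log2 fold change of 0.06 (95% confidence interval -0.07 to 0.20), or 0.10 without Dhps cko replicate 1, 0.03 without Dhps cko replicate 2 and 0.01 with quantile normalization. *Lamp2*, which also serves chaperone-mediated autophagy, was at 26.69 and 28.34 FPKM in Dhps cko and at 28.46 and 24.68 FPKM in Dhps flox. Both Dhps flox libraries enclosed the Dhps cko libraries for *Lamp2*, whose log2 fold change was 0.05 (-0.18 to 0.28) and turned to -0.05 without Dhps flox replicate 2. *Lamp5*, known from plasmacytoid dendritic cells and neurons, was listed at 0 in all 4 libraries.

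Lysosomal genes are known targets of the transcription factors TFEB and TFE3, which bind an E-box with the core CACGTG within the so-called CLEAR element. RefSeq promoter windows of equal length around a start (GRCm38.p6) were matched for 26 of the 36 members, in 31 windows. The letters CACGTG, which read the same on both strands, stood in windows of 9 of the 26 members. Counted by window, they stood in 9 of the 31 member windows and in 7.15% of all 32851 windows. The longer palindrome TCACGTGA, which contains CACGTG, stood in windows of 5 members (*Atp6v0d1*, *Atp6v0e*, *Atp6v1a*, *Ctsa* and *Ctsd*). These were 5 of the 31 member windows, beside 0.974% of all windows. The letters GAAA repeated after 2 free bases were searched on both strands as the core of an interferon-stimulated response element. They stood in windows of 4 members, in 4 of the 31 member windows and in 3.44% of all windows. The following stretches are shown 5′ to 3′ on the strand of the gene because they belong to members with different behaviour between genotypes: *Atp6v0b*, *Ctsd* and *Ctss* had an unadjusted p under 0.05, whereas *Atp6v1a* and *Lamp1* did not. Capitals mark CACGTG in the first 4 and the repeated GAAA in *Ctss*; a repeat on the other strand of *Lamp1* is not marked. For *Ctsd* 1 of the 2 sites in its window is shown alone (chr7:142387908-142387937, minus strand), and for the others the bases before the start that are not annotated exon: *Atp6v0b* (chr4:117887334-117887479, minus strand), *Atp6v1a* (chr16:44139306-44139409, minus strand), *Lamp1* (chr8:13159011-13159160, plus strand) and *Ctss* (chr3:95526636-95526785, plus strand).
Ctsd: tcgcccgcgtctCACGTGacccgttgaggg
Atp6v0b: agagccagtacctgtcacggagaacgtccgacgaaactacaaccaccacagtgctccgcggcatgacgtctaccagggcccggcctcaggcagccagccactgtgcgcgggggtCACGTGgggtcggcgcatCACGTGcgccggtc
Atp6v1a: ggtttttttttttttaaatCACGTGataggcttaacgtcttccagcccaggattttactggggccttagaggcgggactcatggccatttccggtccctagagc
Lamp1: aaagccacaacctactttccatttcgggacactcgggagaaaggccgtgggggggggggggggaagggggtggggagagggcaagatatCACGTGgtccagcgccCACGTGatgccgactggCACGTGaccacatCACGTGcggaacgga
Ctss: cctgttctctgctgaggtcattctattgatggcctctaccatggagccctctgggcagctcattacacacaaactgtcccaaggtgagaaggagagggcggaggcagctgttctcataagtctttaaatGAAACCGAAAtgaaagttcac

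The *Lamp1* stretch holds CACGTG 4 times and the *Atp6v0b* stretch 2 times, and *Atp6v1a* and *Ctsd* hold the full palindrome. These matches are letters in a window and say nothing of binding, and their relation to the fold changes was not tested. Of the factors' own genes, *Tfeb* was at 9.06 and 9.77 FPKM in Dhps cko and at 9.26 and 8.60 FPKM in Dhps flox, and *Tfe3* was between 11.12 and 11.98 FPKM in all libraries. *Mitf*, at 0.81 and 1.1 FPKM in Dhps cko and at 0.3 and 0.73 FPKM in Dhps flox, did not overlap but was low (log2 fold change 0.86, SE 0.42). None of the 4 factor genes tested (*Tfeb*, *Tfe3*, *Mitf* and *Tfec*; median 0.06) had an unadjusted p under 0.05 (limma).

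Partners of the pump include accessory and assembly proteins. Of 11 partner and assembly genes, 0 had an unadjusted p under 0.05 (limma), where the share over all genes tested, 7.0%, comes to less than 1 gene in a list of this size. *Atp6ap1*, an accessory subunit of V0, was at 64.79 and 62.66 FPKM in Dhps cko and at 53.03 and 60.96 FPKM in Dhps flox. *Atp6ap2*, the other accessory subunit, was at 30.98 and 31.23 FPKM in Dhps cko and at 30.08 and 29.28 FPKM in Dhps flox. The list had a median log2 fold change of 0.05, close to that of the pump genes themselves.

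Cystatins and stefins bind cysteine cathepsins and block them. Of the 8 inhibitor genes tested, 8 had a log2 fold change above 0, as had 9368 of all 17948 genes tested, and 2 had an unadjusted p under 0.05, as had 7.0% of all genes tested. Their median was 0.11, against 0.01 over all genes. The 8 include *Stfa1*, *Stfa2*, *Stfa2l1* and *Stfa3*, neighbours on chromosome 16 that were each lowest in Dhps flox replicate 2, so they are not separate observations. *Cst3* (cystatin C, secreted) was at 91.96 and 98.87 FPKM in Dhps cko and at 82.22 and 85.12 FPKM in Dhps flox. *Cstb* (cystatin B, cytosolic) was at 14.42 and 14.59 FPKM in Dhps cko and at 12.52 and 11.78 FPKM in Dhps flox. Both were higher in both Dhps cko libraries, with log2 fold changes of 0.19 (SE 0.06) and 0.25 (SE 0.07). The stefin A genes, cytosolic inhibitors that neutrophils make in large amounts, were far more abundant than any cathepsin, with *Stfa2l1* at 5422.03 and 5816.69 FPKM in Dhps cko and at 5671.47 and 4915.97 FPKM in Dhps flox, and the genotypes overlapped.

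Other lysosomal genes gave a similar mixture. Over the 7 lists of pathway genes, 94 of 96 genes were tested, 67 had a log2 fold change above 0, 12 had an unadjusted p under 0.05 and were higher and 1 was lower, where 4.72% of all genes tested were higher and 2.28% lower at that p. The median over the 94 genes was 0.07. The 6 other proteases, a list that holds *Ctsg*, had a median of 0.25, and *Prcp* (0.19) was the median of the 5 without *Ctsg*. Among them, *Lgmn*, the asparaginyl endopeptidase that processes cathepsins, was at 20.58 and 22.25 FPKM in Dhps cko and at 16.33 and 17.24 FPKM in Dhps flox, a log2 fold change of 0.35 (SE 0.07; unadjusted p = 0.00502 and adjusted p = 0.49, limma), and *Scpep1*, a serine carboxypeptidase gene, had a log2 fold change of 0.35 as well. The 32 hydrolase genes had a median of 0.01, and among them *Hexa* (0.18), a subunit gene of beta-hexosaminidase, was higher and *Sgsh* (-0.27), which degrades heparan sulfate, lower at an unadjusted p under 0.05. The 9 activator and transport proteins had a median of 0.07. Of these, *Npc2*, which carries cholesterol, was at 13.53 and 14.24 FPKM in Dhps cko and at 11.32 and 11.65 FPKM in Dhps flox, and *Gm2a*, the GM2 ganglioside activator, had a log2 fold change of 0.24. Of 24 other lysosomal membrane proteins, whose median was 0.09, 4 had an unadjusted p under 0.05, all higher, among them *Cd68* (0.29), *Lamtor4* (0.22) and *Laptm4a* (0.14). None of these genes passed an adjusted p of 0.05.

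Markers of the other cell types that a sort could hold were listed as well. Over the 16 monocyte and macrophage markers, 15 had a log2 fold change above 0, as had 9368 of all 17948 genes tested. With an unadjusted p under 0.05, 8 were higher, as were 4.72% of all genes tested, and none had an adjusted p under 0.05 (limma, lowest 0.24). One of the 8, *Cd68*, is also in the list of lysosomal membrane proteins. None of the 16 was at 0 in all libraries. The list summed to 549.01 and 551.29 FPKM in Dhps cko and to 462.96 and 462.23 FPKM in Dhps flox, 118.9% of the Dhps flox mean, beside 116.4% for the cysteine cathepsins. *C1qb*, a complement gene of tissue macrophages, was at 27.28 and 32.28 FPKM in Dhps cko and at 20.29 and 18.13 FPKM in Dhps flox, a log2 fold change of 0.63 (SE 0.11). The list was not uniform, since *Spic* (-0.01), *Slc40a1* (0.03), *Mrc1* (0.08), *Cd5l* (0.12) and *Vcam1* (0.14), also macrophage genes, overlapped between genotypes. The 8 B cell markers summed to 66.89 and 69.49 FPKM in Dhps cko and to 42.71 and 52.04 FPKM in Dhps flox, the 8 T cell markers to 18.47 and 14.98 and to 11.86 and 8.01 FPKM, the 9 dendritic cell markers to 6.31 and 6.78 and to 4.03 and 5.25 FPKM, and the 7 eosinophil markers to 98.91 and 94.12 and to 80.26 and 81.68 FPKM. Most of each eosinophil sum was *Ear2*, at 84.92 and 81.68 FPKM in Dhps cko and at 70.94 and 72.62 FPKM in Dhps flox. The median log2 fold change was 0.66 for the B cell, 0.67 for the T cell, 0.48 for the dendritic cell and 0.24 for the eosinophil markers. For the monocyte and macrophage markers it was 0.23. Over the 12 neutrophil markers the median log2 fold change was 0.11, with 1 (*Ly6g*) at an unadjusted p under 0.05. In bulk RNA, fewer cells of a type and less RNA per cell cannot be told apart, and the part of other cells in the levels of *Ctss*, *Ctsc*, *Ctsd*, *Ctse* and *Lgmn* was not tested.

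The differences among the pump genes ran with gene length. When genes at or above 1 FPKM with an annotated exon length were split by it into 5 bins of 2123 to 2126 genes, the median log2 fold change was 0.09 in the shortest bin and -0.06 in the longest. Over the 15 pump genes of at least 1 FPKM, log2 fold change and exon length had a Spearman rho of -0.70, a description across genes that share the same 4 libraries. The 4 pump genes with exon lengths under 2500 bases (*Atp6v1f*, *Atp6v1g1*, *Atp6v0d1* and *Atp6v0b*) had a median of 0.18 and the 11 longer ones a median of 0.02. With the trend on length removed from each library, *Atp6v1f* had a log2 fold change of 0.15 and *Atp6v0d1* of -0.04. *Atp6v1g1*, *Atp6v0b* and *Ctsd* were each at 0.11, whereas *Ctse* was at -0.53 and *Ctss* at 0.31. The unadjusted p of *Atp6v0b* was then 0.087 and that of *Ctsd* 0.12 (limma). The part of length in the differences was not otherwise tested.

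**Figure D5:**
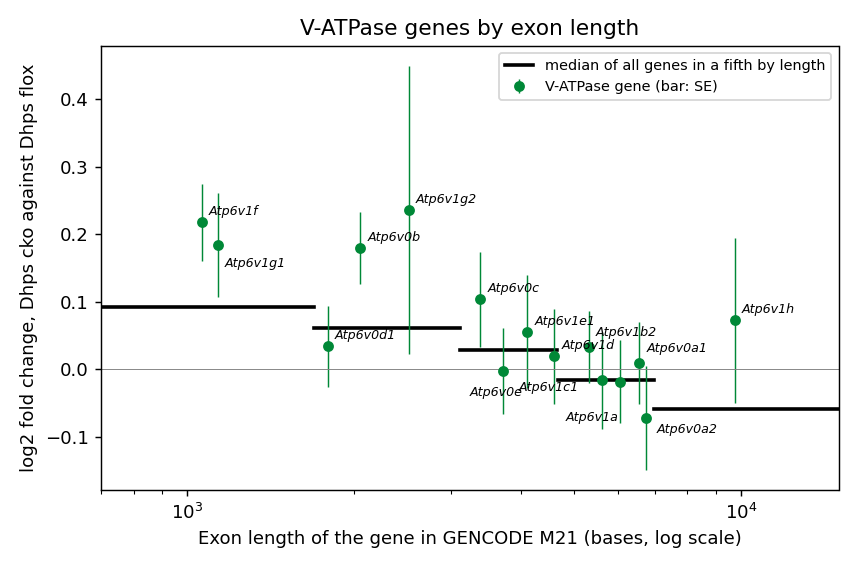
Log2 fold change between genotypes (y axis, log2 scale) against exon length in bases (x axis, log scale) for the 15 V-ATPase genes of at least 1 FPKM, with bars for the SE, and black lines for the median of all genes of at least 1 FPKM in each of 5 bins by length. The short genes *Atp6v1f*, *Atp6v1g1* and *Atp6v0b* lie at 0.18 to 0.22, above the line of their length, while the short gene *Atp6v0d1* lies below its line at 0.03. Of the longer genes *Atp6v1g2* (0.24) and *Atp6v0c* (0.10) lie highest. The value of *Atp6v1g2* was 0.01 without Dhps flox replicate 1 and 0.46 without Dhps flox replicate 2.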

How the data were processed

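RNA was sequenced from PMN-MDSCs of 4 libraries, 2 Dhps cko and 2 Dhps flox. Per the study's methods, the authors filtered reads with Cutadapt v1.9, aligned them with HISAT2 v2.2.1 (mm10 per the submitters' processing notes) and computed FPKM with StringTie v2.1.6 and ballgown. The deposited FPKM are rounded to 2 decimals. The annotation, the use of strand and any scaling between libraries are not given in the sources used here. FPKM are relative to the total of a library, so they rest on equal composition.

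Values were tested as log2(FPKM + 0.1), for genes whose mean reached 0.1 FPKM, with limma 3.58.1 in R 4.3.3 (mean-variance trend, 2-sided, Benjamini-Hochberg adjustment, threshold 0.05), over 17948 genes. Fold changes on this scale understate those of low genes. FPKM hold no counts, and only 38.0% to 42.2% of low values lay near a whole fragment, where chance gives 30%, so no count test was run and depth is approximate. Exon lengths, overlaps and positions came from GENCODE M21 (GRCm38, the build mm10), which held 28511 of the gene identifiers. The fit was tested on simulated data. The members, the 7 pathway lists, the 10 marker lists and the motifs were chosen with earlier results of these data known. Values in all libraries are given for members with an unadjusted p under 0.05, the 5 most abundant pump genes and cathepsins, the LAMP genes and the isoforms of pump subunits. Of the pathway lists, *Tcirg1*, *Atp6ap1*, *Atp6ap2*, *Cst3*, *Cstb* and up to 3 genes a list with the lowest unadjusted p under 0.05 are named. One gene that this rule names is not reported here. *C1qb*, *Ctsk*, *Ctsa*, *Atp6v1a*, *Stfa2l1*, *Tfeb*, *Tfe3*, *Mitf*, *Ly6g*, *Elane*, *Prtn3*, *Prcp*, *Cebpe*, *Ear2*, the macrophage markers and *S100a9* were named after their values were seen. Summaries and figures were made in Python 3.11.15 (pandas 2.3.3, matplotlib 3.10.9). The alternatives changed the pseudocount, the filter, the scaling or the variance model, added a replicate block, removed the trend on length, or left out a library.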

Additional observations from a re-analysis of the deposited data

How the results depend on the processing

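Of the 20 members followed in detail, 17 kept their direction under each alternative that gave them a value (15, or 13 for *Atp6v0d2* and *Atp6v1c2*, which fell below the filter at 1 FPKM and with 1 library left out) and 0 had an adjusted p under 0.05 under any of them. The exceptions all lay near 0: *Atp6v0a1* at -0.0227 with TPM scaling, -0.00261 with size factors and -0.0112 with quantile normalization, and from -0.0185 (without Dhps flox replicate 1) to 0.0372 with each library left out (-0.00517 without Dhps cko replicate 1); *Atp6v0d1* at -0.0382 with the length trend removed and from -0.0173 (without Dhps cko replicate 2) to 0.0852 with each library left out; and *Lamp2* from -0.0492 (without Dhps flox replicate 2) to 0.156 with each library left out. The median of the pump genes (0.03) was 0.00189 with TPM scaling and ran from 0.00891 (without Dhps cko replicate 2) to 0.0770 (without Dhps cko replicate 1) with each library left out. The median of the cathepsins (0.12) was 0.108 with a pseudocount of 1, 0.094 with TPM scaling, 0.112 with size factors and 0.094 with quantile normalization, and ran from 0.112 to 0.134 with each library left out. The number of members with an unadjusted p under 0.05 was 3 without the mean-variance trend and ran from 3 to 7 with each library left out. Over all genes, adjusted calls at 0.05 numbered 1, against 0 with a pseudocount of 0.01, 0 with no filter, 4 with a filter of 1 FPKM, 2 with quantile normalization, 2 with robust empirical Bayes, and 0 without any 1 of the libraries. The share of *Atp6v0a1* in the a subunit FPKM, 0.36 percentage points lower in Dhps cko, was 1.15 points higher with *Tcirg1* left out and ran from -1.9995 points without Dhps cko replicate 2 to 1.29 points without Dhps cko replicate 1 (1.20 without Dhps flox replicate 1). Over all 17948 genes tested, 1296 had an unadjusted p under 0.05 without the mean-variance trend, against 1257 in the main fit (limma). With a library left out, the numbers over members and over all genes moved together. Both were lower without a Dhps cko replicate than without a Dhps flox replicate, so the range over members was not particular to them. The causes of these shifts were not tested.

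With the replicate number as a block, 4 members had an unadjusted p under 0.05 (limma), as had 1082 of all 17948 genes tested. No gene had an adjusted p under 0.05 with the block. The labels do not say that a number marks a shared litter or day, and the deviations of same-numbered libraries had a correlation of -0.00615 over 17948 genes, so the block pairs libraries by number only.

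With 2 libraries a genotype, the SE of members of at least 1 FPKM was 0.05 to 0.21 and that of the 5 tested members below it 0.33 to 0.54 on the log2 scale. Other scalings shifted the median of all genes to no lower than -0.0194.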

Other observations

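*Ctsg*, which matched the pattern by symbol but was left out as a granule protease, was at 2.3 and 1.35 FPKM in Dhps cko and at 1.48 and 1.34 FPKM in Dhps flox, so the genotypes overlapped. The pseudogene *Atp6v0c-ps2* had a log2 fold change of 0.05 (SE 0.06) and overlapped too.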
